A study of Mus musculus with 18 samples.

Results

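LUBAC, the linear ubiquitin chain assembly complex, and the proteins that trim or read its chains were examined as transcripts in sorted thymocytes. The 8 genes were found in the 18 count files by their Entrez Gene identifiers, out of 27179 genes counted, and all 8 passed the filter that left 12798 genes for testing. *Rbck1* encodes HOIL-1, *Rnf31* encodes HOIP and *Sharpin* encodes SHARPIN, the subunits of LUBAC. *Otulin* and *Cyld* encode deubiquitinases that cleave linear chains, and *Spata2* encodes the adaptor that carries CYLD to HOIP. *Tnfaip3* encodes A20, an inhibitor of NF-κB that binds linear chains and edits ubiquitin, and *Tnip1* encodes ABIN-1, a linear chain reader and partner of A20.

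LUBAC joins ubiquitin molecules head to tail, through the amino-terminal methionine, in signalling complexes below TNF receptor 1, the T cell receptor and other receptors. The chains hold the NEMO-containing IκB kinase complex and so favour NF-κB activation and limit cell death. HOIP carries the catalytic centre that makes the linear bond, HOIL-1 and SHARPIN stabilize and activate it, and OTULIN and CYLD take the chains down again. *Tnfaip3* and *Tnip1* are well known NF-κB target genes, so that this system holds its own feedback.

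CD69+ thymocytes, which have received a T cell receptor signal, were sorted into an earlier MHC I low and a later MHC I high fraction from 9 mice, 3 of each genotype, so that every one of the 6 groups held 3 samples. The sort removed dead cells and those positive for B220, NK1.1, the δ chain of the T cell receptor, CD25, CD44, MHC II, Mac-1 or Gr1, a gate against most B, NK, γδ T, regulatory T and myeloid cells. WT mice were C57BL/6. *Hoil* ΔCd4 mice carried a *Cd4* Cre transgene and loxP sites around the *Rbck1* promoter and its first 2 exons, made in C57BL/6 embryonic stem cells, so that the deletion begins in T lineage cells once *Cd4* is expressed. *Sharpin* cpdm mice carry their mutation in every cell of the body, on a background that the study's authors describe as still mostly C57BL/Ka after limited backcrossing to C57BL/6, so that mutation and strain background cannot be told apart in their comparison with WT. No Cre-only control group and no *Rnf31* mutant was analysed here, and the labels give no ages. Each mouse gave both fractions, and each mutant was compared with the same 3 WT samples of a fraction, so that the comparisons with WT share their controls.

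The sequences just before the annotated starts are shown for the gene whose promoter was deleted and for the 2 feedback genes, *Tnfaip3*, called in both mutants, and *Tnip1*, called in *Sharpin* cpdm. They were taken from RefSeq windows of GRCm38.p6 that run from 250 bases before to 50 bases after a start, with 9 windows matching 7 of the 8 genes and none matching *Sharpin*. Only the 250 bases before the start are printed, from 5′ to 3′ on the gene's own strand, with capitals for matches to GGGNNNNNCC on either strand, a loose form of the sequence bound by NF-κB. *Rbck1* lies on the minus strand of chromosome 2, *Tnfaip3* on the minus strand of chromosome 10 and *Tnip1* on the minus strand of chromosome 11.
Rbck1, chr2:152332426-152332675: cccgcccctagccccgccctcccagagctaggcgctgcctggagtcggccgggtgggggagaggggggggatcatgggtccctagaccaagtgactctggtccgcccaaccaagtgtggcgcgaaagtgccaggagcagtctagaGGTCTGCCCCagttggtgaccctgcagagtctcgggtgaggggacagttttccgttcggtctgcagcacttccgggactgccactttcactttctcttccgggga
Tnfaip3, chr10:19015411-19015660: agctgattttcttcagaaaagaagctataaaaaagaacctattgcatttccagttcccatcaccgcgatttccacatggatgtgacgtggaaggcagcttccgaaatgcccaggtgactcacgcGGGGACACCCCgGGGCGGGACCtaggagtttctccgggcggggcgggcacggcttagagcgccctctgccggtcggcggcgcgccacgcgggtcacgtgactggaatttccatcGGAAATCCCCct
Tnip1, chr11:54962941-54963190: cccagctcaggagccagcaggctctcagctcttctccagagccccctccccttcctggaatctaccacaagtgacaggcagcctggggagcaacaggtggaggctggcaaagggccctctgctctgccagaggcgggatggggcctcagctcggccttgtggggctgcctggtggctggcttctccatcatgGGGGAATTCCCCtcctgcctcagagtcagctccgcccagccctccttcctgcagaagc

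The *Tnfaip3* window held 6 matches to GGGNNNNNCC, of which 4 lay in the printed 250 bases and 1 of these, 12 bases before the start, also met the stricter letters GGGNNTTTCC, a subset of the looser form. The *Tnfaip3* matches that began 126 and 125 bases before the start overlapped, as did the 2 that began at positions 32 and 33 after it. In *Tnip1* a single run of 12 bases, GGGGAATTCCCC, gave 3 overlapping matches that began 58, 57 and 56 bases before the start, and no strict match. The printed *Rbck1* window, 1 of 2 for this gene, held 1 match, and the other held 1 as well, while a second *Tnfaip3* window held 2 that overlapped. Loose matches were common, since 50.8% of the 32851 windows of the same length held at least 1, 13.6% at least 3 and 1.47% at least 6, whereas 1.63% held a strict match. Overlapping matches were counted separately in these shares as well. The other windows held 4 loose matches for *Rnf31*, 2 for *Otulin*, 3 for *Cyld*, with 1 strict match among them, and 0 for *Spata2*. Those of *Rnf31* lay in overlapping pairs, and some of those of *Cyld* overlapped. A match describes letters, and no binding was measured here.

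Libraries held between 10577966 and 16266128 counts in genes, and replicates differed by more than counting noise, with a chi-square per degree of freedom of 5.26 to 16.7 between pairs. T cell genes were abundant in every library, with 4300 to 6030 CPM (counts scaled to the size of the library) summed over 8 markers, and *H2-K1*, an MHC I heavy chain gene, stood at 157.3 to 232.4 CPM in the MHC I low and 1725 to 2118 CPM in the MHC I high libraries, as the sort implies. Most markers of other cells were scarce: 7 thymic epithelial genes summed to at most 12.7 CPM and 10 myeloid and dendritic genes to at most 14.8 CPM in any library, with *Pax5*, a B cell factor, at 0 in all libraries of 5 of the 6 groups. The 8 B cell genes summed to 81.0 to 177 CPM, of which *Ighm* gave 75.7 to 172 CPM, and 6 genes of NK and γδ T cells to 11.8 to 62.9 CPM, with *Ncr1* at 0 in every library. Both sums were higher in the MHC I high than in the MHC I low libraries of each genotype. Among MHC I low libraries the NK and γδ T cell sum was 11.8 to 18.7 CPM in WT, 20 to 29.5 CPM in *Hoil* ΔCd4 and 22.2 to 37.6 CPM in *Sharpin* cpdm. Its largest genes were *Nkg7*, with 0.543 to 49.7 CPM over all libraries, and *Sox13*, with 2.9 to 35.4 CPM, while *Klrb1c* reached at most 0.445 CPM. The 6 genes of double-positive thymocytes summed to 355 to 392, 387 to 453 and 302 to 338 CPM in the MHC I low libraries of WT, *Hoil* ΔCd4 and *Sharpin* cpdm. They summed to 491 to 584, 529 to 816 and 560 to 700.0 CPM in the MHC I high libraries of these genotypes. Of these genes *Cd8b1*, also counted among the T cell markers, gave 90.9 to 420 CPM over all libraries, *Rag1* 78.1 to 191 CPM and *Dntt* 78.9 to 193 CPM. The thymic epithelial sum in MHC I high libraries was 8.34 to 9.54 CPM in WT, 11.6 to 12.7 CPM in *Hoil* ΔCd4 and 8.83 to 11.3 CPM in *Sharpin* cpdm. *Epcam* gave 5.6 to 11.6 CPM of it over all libraries, while the medians of *Foxn1*, *Krt5* and *Krt8* were 0. The part of these sums in the results was not tested. By *Xist* and *Ddx3y*, all 3 WT mice were female and each mutant group held 1 female and 2 males. In the MHC I high library of *Hoil* ΔCd4 mouse 2, *Xist* stood at 64.6 CPM beside *Ddx3y* at 339 CPM, while the MHC I low library of that mouse had 0.606 CPM of *Xist*. Values without this mouse are given where a result rests on it.

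In WT cells the subunits and editors spanned a wide range of levels per length, given as FPKM, which is CPM per kb of summed exons. In the MHC I low fraction *Rbck1* led with 87.6 ± 2.39 FPKM (SD, n = 3), above 94.3% of the genes tested. *Tnfaip3* with 53.7 ± 5.02 and *Sharpin* with 52.7 ± 3.32 FPKM followed and their ranges overlapped. *Tnip1* stood at 41.3 ± 0.515 FPKM, below both.

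*Otulin*, *Cyld* and *Rnf31* lay between 29.9 and 31.7 FPKM with overlapping ranges, and *Spata2* was lowest with 14.6 ± 0.394 FPKM, near the median of 12.0 FPKM over all genes tested. The order changed in the MHC I high fraction, where *Rbck1* again led, with 104.7 ± 0.898 FPKM, but *Tnip1* came next with 57.8 ± 2.68 FPKM and *Tnfaip3* dropped to 33.0 ± 1.44 FPKM, overlapping *Otulin* at 32.3 ± 2.23 FPKM. *Sharpin* stood at 51.8, *Cyld* at 37.6, *Rnf31* at 34.7 and *Spata2* at 11.7 FPKM, each without overlap with the next. Transcripts of the subunits were thus unequal. For each *Rnf31* transcript per length there were 2.93 ± 0.114 of *Rbck1* and 1.76 ± 0.0458 of *Sharpin* in WT MHC I low cells, and 3.02 ± 0.0656 and 1.49 ± 0.0351 in WT MHC I high cells (SD, n = 3).

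**Figure D1:**
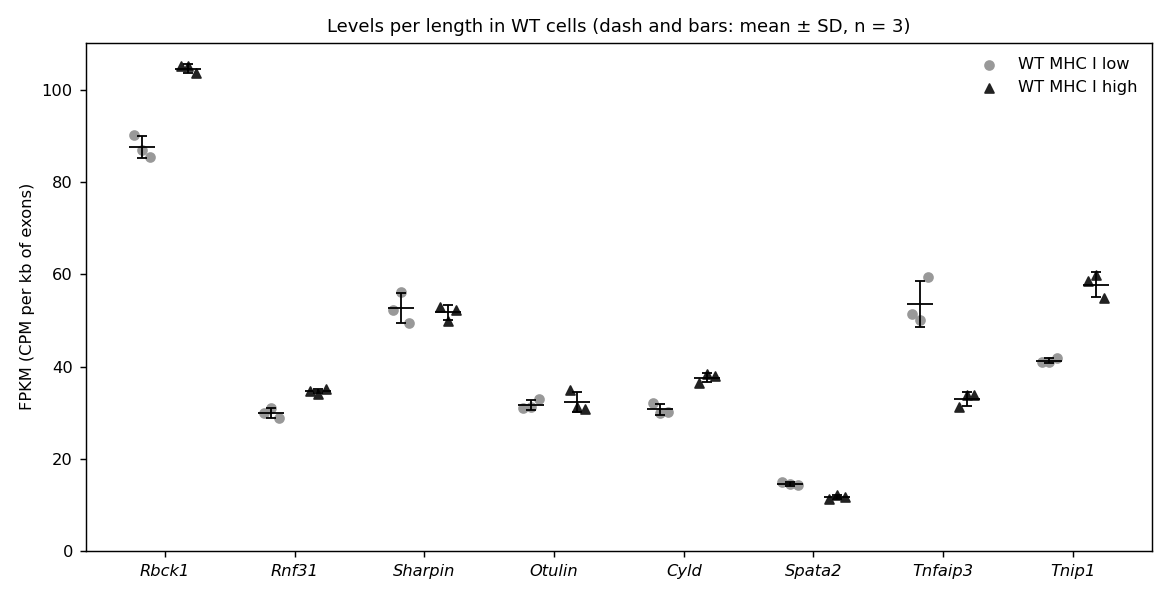
Levels per length (FPKM, vertical axis from 0) of the 8 genes in the 3 WT samples of each fraction, with a dash and bars for the mean ± SD. *Rbck1* stands above all others in both fractions, and *Tnip1* and *Tnfaip3* change places between the fractions.

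*Rbck1* transcripts were nearly absent from the MHC I low cells of *Hoil* ΔCd4 mice, which checks the labels. The gene, at chr2:152316334-152332663, gave 229.1, 221.2 and 217.2 CPM in the 3 WT samples of this fraction and 0.581, 0.779 and 0.271 CPM, from 8, 9 and 4 counts, in the mutants. In the MHC I high fraction the WT samples gave 267.2, 267.6 and 263.5 CPM, and the mutant samples gave 3.72, 8.94 and 4.51 CPM from 49, 118 and 47 counts. The mutant and WT values lay far apart in both fractions. The mutant mean was 0.244% of the WT mean in the earlier and 2.15% in the later fraction. The log2 fold change was −8.63 (SE 0.288, limma adjusted p = 5.29e-09) and −5.55 (SE 0.259, limma adjusted p = 1.44e-07).

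The residual signal was thus larger in the later fraction. Within *Hoil* ΔCd4 mice *Rbck1* was 9.99-fold higher in MHC I high than in MHC I low cells (log2 3.32, SE 0.266, limma adjusted p = 2.67e-07), and higher in each of the 3 mice. This change exceeded that in WT by 3.07 on the log2 scale (SE 0.342, limma adjusted p = 0.00422), in a comparison that called 0.398% of all genes and 1 of the 8. That difference had an adjusted p between 3.84e-17 and 0.0599 over 19 alternative fits and missed the threshold without *Hoil* ΔCd4 mouse 3 (0.0517) or WT mouse 3 (0.0599). The highest residual value, 8.94 CPM, came from the library with *Xist* at 64.6 CPM. Without this mouse the difference was 2.89 (limma adjusted p = 0.00083), and the part of that library's *Xist* signal in the residual was not tested.

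In *Sharpin* cpdm cells *Rbck1* stood at 105% of WT in the earlier and 98.6% in the later fraction, with 231 to 235.9 and 260.1 to 263.8 CPM. The interval of the difference was wide, from −0.508 to 0.634 and from −0.531 to 0.502 on the log2 scale, since the fit takes 1 spread for the gene over all groups, the *Hoil* ΔCd4 samples of few counts included. These differences did not pass the test (limma adjusted p = 0.911 and 0.983).

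**Figure D2:**
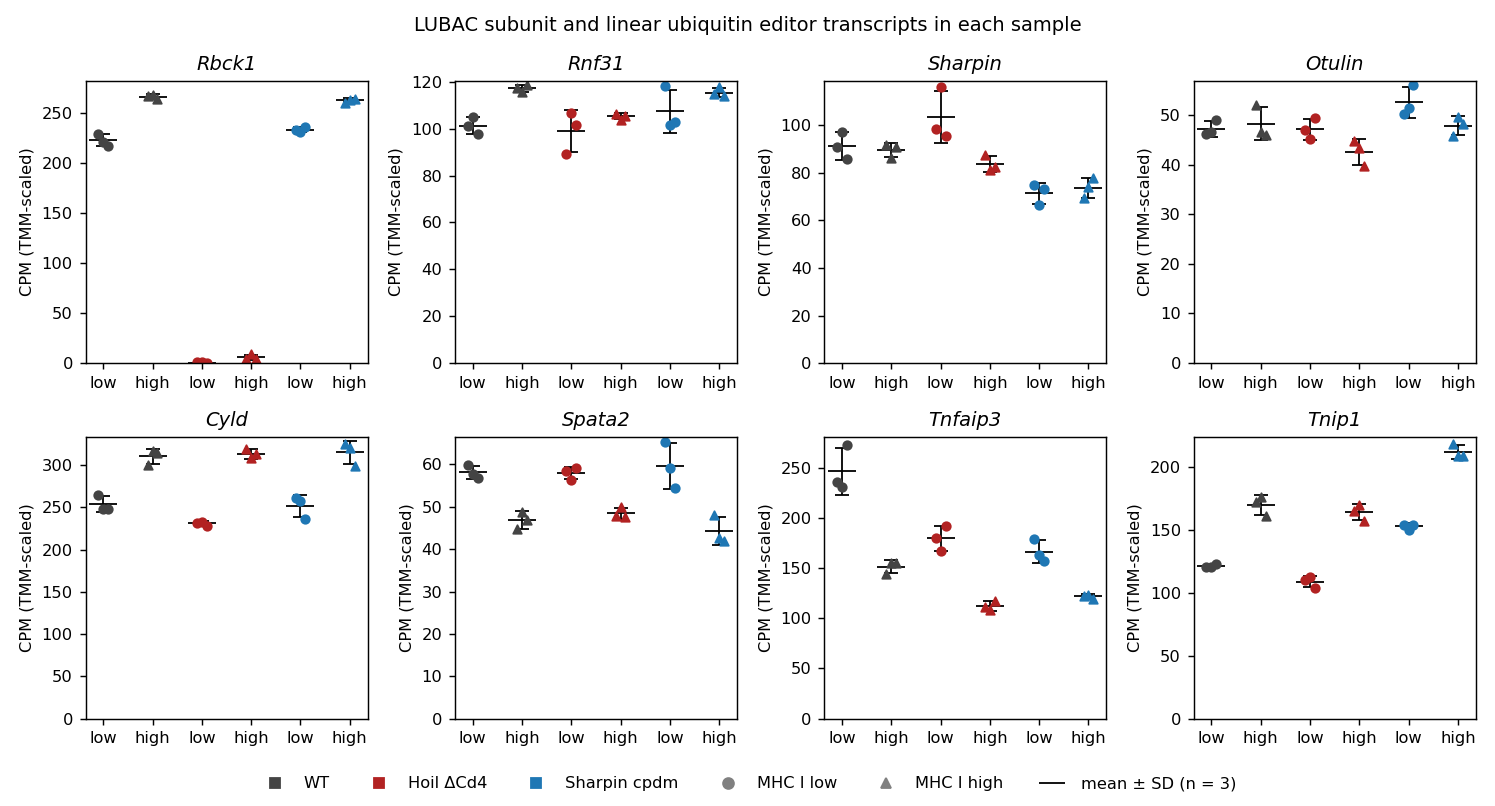
CPM scaled by TMM factors (vertical axes from 0) of each gene in the 18 samples, with a dash and bars for the mean ± SD of 3 samples, circles for MHC I low and triangles for MHC I high. *Rbck1* is near 0 in *Hoil* ΔCd4 samples only, *Tnfaip3* is lower in both mutants than in WT of the same fraction, and *Tnip1* is higher in *Sharpin* cpdm.

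*Sharpin* itself was modestly lower in *Sharpin* cpdm cells. The cpdm allele is a frameshift mutation, so that its transcript is still counted and the level is no check of protein loss. The gene, at chr15:76347040-76351110, gave 90.7, 97.3 and 85.9 CPM in WT and 74.7, 66.4 and 73.4 CPM in mutant MHC I low samples. The later fraction gave 91.9, 86.5 and 90.8 CPM in WT and 69.4, 74.2 and 77.9 CPM in the mutant. WT and mutant values did not overlap in either fraction, as for 30.0% and 22.3% of all genes in the earlier and later fraction. The mutant means were 78.3% and 82.3% of WT, with log2 fold changes of −0.36 (SE 0.0683, limma adjusted p = 0.000521) and −0.29 (SE 0.0618, limma adjusted p = 0.00209). The second missed the threshold without WT mouse 1 (0.0615) or WT mouse 3 (0.093), with a range of 0.000525 to 0.093 over 20 alternatives.

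In *Hoil* ΔCd4 mice *Sharpin* gave 98.7, 116.2 and 95.7 CPM in the earlier fraction, 113% of WT (log2 0.17, limma adjusted p = 0.397), and 87.7, 81.2 and 82.5 CPM in the later one, 93.4% of WT (log2 −0.12, limma adjusted p = 0.287). Neither passed the test. Within these mice the change from MHC I low to high was −0.30 log2 (SE 0.0691, limma adjusted p = 0.000693), a call lost without mouse 2 (adjusted p over the alternatives from 0.000352 to 0.0564, the highest being that fit), in whom the change was −0.516, the most negative of the 9 mice. In WT the same change was −0.01 (limma adjusted p = 0.934), and the difference between both, −0.29, did not pass (limma adjusted p = 0.182).

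*Rnf31*, at chr14:55591713-55603674, showed no called change in either mutant. Over MHC I low samples it ranged from 97.7 to 105 CPM in WT and from 89 to 106.6 CPM in *Hoil* ΔCd4. Among MHC I high samples all 3 *Hoil* ΔCd4 values, 106.4, 103.8 and 105.6 CPM, lay below the WT values of 117.4, 115.5 and 118.7 CPM, at 89.8% of the WT mean. That difference of −0.17 log2 (95% interval −0.294 to −0.046) missed the threshold (limma adjusted p = 0.0865). Mutant and WT values did not overlap for 19.6% of all genes in this comparison. In *Sharpin* cpdm the level was 106% and 98.5% of WT in the 2 fractions (limma adjusted p = 0.425 and 0.837), with intervals of −0.045 to 0.207 and −0.139 to 0.088.

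By these levels *Sharpin* per *Rnf31* lay outside the WT range in 3 of the 4 mutant groups. It stood at 1.30 ± 0.0794 and 1.25 ± 0.0764 in the earlier and later *Sharpin* cpdm cells, below every WT sample (1.72 to 1.81 and 1.46 to 1.53). *Hoil* ΔCd4 MHC I low cells had 2.04 ± 0.177, all 3 samples at or above 1.84, and the MHC I high cells had 1.55 ± 0.0493, overlapping WT. *Rbck1* per *Rnf31* was 2.90 ± 0.237 and 3.03 ± 0.0503 in *Sharpin* cpdm cells, overlapping WT in both fractions. These ratios are a description with no test.

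*Tnfaip3* was lower in both mutants and in both fractions. MHC I low samples of WT gave 236.1, 230.5 and 272.9 CPM, those of *Hoil* ΔCd4 180.2, 167 and 192.3 CPM and those of *Sharpin* cpdm 178.9, 163.1 and 157.3 CPM. MHC I high samples of WT gave 143.9, 155.5 and 155.2 CPM, those of *Hoil* ΔCd4 111.3, 108.2 and 117.6 CPM and those of *Sharpin* cpdm 122.5, 123.4 and 119.4 CPM. Every mutant sample was below every WT sample of its fraction, and the WT MHC I low samples were the highest of all. Values of *Hoil* ΔCd4 and WT did not overlap for 14.7% and 19.6% of all genes in the earlier and later fraction. For *Sharpin* cpdm and WT these shares were 30.0% and 22.3%.

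The *Hoil* ΔCd4 means were 72.9% and 74.2% of WT. *Tnfaip3* and *Rbck1* were the 2 of 8 genes called in *Hoil* ΔCd4 cells of the earlier fraction, where 0.985% of all genes were called, and again of the later fraction, where 6.65% were. *Rbck1* is the gene deleted in these mice, so its call was fixed by the design. The study's authors name *Tnfaip3* among NF-κB target genes reduced in both mutants in these data. The 8 genes were chosen with earlier results known, so the count of 2 is no independent result. The log2 fold changes of *Tnfaip3* were −0.45 (SE 0.0677, limma adjusted p = 0.000174) and −0.43 (SE 0.0608, limma adjusted p = 2.61e-05), and −0.40 and −0.41 without mouse 2 (0.00423 and 0.00139). Over the 20 alternatives the adjusted p ran from 2.67e-07 to 0.00423 and from 1.63e-06 to 0.00221.

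In *Sharpin* cpdm cells the *Tnfaip3* means were 67.5% and 80.4% of WT, with log2 fold changes of −0.56 (SE 0.0617, limma adjusted p = 1.67e-07) and −0.31 (SE 0.0558, limma adjusted p = 0.000322). It was 1 of 3 members called in each fraction, beside *Sharpin* and *Tnip1*, against 12.2% of all genes in the earlier and 8.62% in the later fraction. The 4 calls held in all 20 alternative fits, among them the fit with *Xist* as a covariate. The 2 mutants did not differ in *Tnfaip3* by the test, with −0.115 (95% interval −0.257 to 0.027) and 0.12 (−0.005 to 0.246) in the earlier and later fraction for *Sharpin* cpdm minus *Hoil* ΔCd4 (limma adjusted p = 0.328 and 0.259). In these sorted samples, fewer cells that express a gene and less RNA per cell cannot be told apart.

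The sum over 5 genes listed for regulatory T cells also stood apart between some groups, although CD25+ and CD44+ cells had been gated out of the sort. Over the 5 listed genes, MHC I low libraries of WT summed to 876 to 1080 CPM, those of *Hoil* ΔCd4 to 1000 to 1130 CPM and those of *Sharpin* cpdm to 557 to 617 CPM. The MHC I high libraries of these genotypes summed to 609 to 707, 500 to 638 and 447 to 503 CPM. *Ikzf2* made up most of it with 347 to 1060 CPM in any library, while *Foxp3*, the defining gene, reached at most 6.95 CPM and was at 0 in none of the groups. *Ikzf2* encodes HELIOS, which the study's authors describe as high also in FOXP3-negative CD4 thymocytes bound for deletion or early regulatory T cell differentiation. The sum is thus mostly a measure of *Ikzf2* and not of regulatory T cells. The part of this sum in the results was not tested.

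*Tnip1* differed between the mutants. Among MHC I low samples, WT gave 120.2, 120.8 and 123.1 CPM, *Hoil* ΔCd4 gave 110, 112.2 and 104 CPM and *Sharpin* cpdm gave 154.2, 150.2 and 154.1 CPM. Among MHC I high samples, WT gave 172.1, 176.4 and 161.1 CPM, *Hoil* ΔCd4 gave 165.1, 170 and 157.2 CPM and *Sharpin* cpdm gave 218.4, 208.7 and 208.4 CPM. The *Sharpin* cpdm values stood above all others of their fraction. Values of *Sharpin* cpdm and WT did not overlap for 30.0% and 22.3% of all genes in the earlier and later fraction. Against *Hoil* ΔCd4 these shares were 27.8% and 22.9%.

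*Tnip1* rose to 126% and 125% of WT in *Sharpin* cpdm MHC I low and high cells, with log2 fold changes of 0.33 (SE 0.0522, limma adjusted p = 5.38e-05) and 0.35 (SE 0.0472, limma adjusted p = 7.84e-06). In *Hoil* ΔCd4 it was at 89.5% and 96.6% of WT, which did not pass the test (log2 −0.16 and −0.02, limma adjusted p = 0.237 and 0.896). The direct comparison of *Sharpin* cpdm with *Hoil* ΔCd4 gave 0.49 (SE 0.0588, limma adjusted p = 1.58e-06) in the earlier and 0.36 (SE 0.0521, limma adjusted p = 2.31e-05) in the later fraction. In this comparison 3 of the 8 genes were called in MHC I low cells, where 9.48% of all genes were, and 2 in MHC I high cells, where 6.73% were. *Rbck1*, deleted in *Hoil* ΔCd4 and so called by design, was the second gene in each. *Sharpin* was the third in MHC I low cells, with −0.53 (SE 0.077, limma adjusted p = 2.61e-05).

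*Tnip1*, at chr11:54910787-54962956, sits among genes that also differed in *Sharpin* cpdm. Tested genes with a lower-coordinate end within 200 kb of that of *Tnip1* numbered 7. Of these, 4 passed the test in the earlier and 5 in the later fraction of *Sharpin* cpdm cells, beside 12.2% and 8.62% of all genes. In *Hoil* ΔCd4 cells 0 and 1 of the 7 passed, beside 0.985% and 6.65% of all genes. For the earlier *Hoil* ΔCd4 fraction the count was 0 also by edgeR and DESeq2, and 1 of the 7 had an unadjusted limma p under 0.05. These neighbours were looked at after the values of *Tnip1* had been seen. *Lyrm7*, a mitochondrial assembly factor gene, rose by 1.55 and 0.87 log2 (limma adjusted p = 7.67e-08 and 0.000181), from 3.90 to 6.65 CPM in WT to 14.1 to 16.8 CPM in *Sharpin* cpdm MHC I low samples. *Anxa6*, which encodes a calcium-dependent membrane binding protein, rose by 0.47 and 0.32, *Ccdc69* rose by 0.49 and 0.57, and *Gm2a*, which encodes the GM2 activator protein, fell by 0.41 and 0.50 on the log2 scale. *Cdc42se2* fell by 0.33 in MHC I high cells. Within 1 Mb, 7 of 16 genes (43.8%) and 8 of 16 (50.0%) were called in *Sharpin* cpdm, while 13.0% and 9.62% of the genes of chromosome 11 were. In *Hoil* ΔCd4 0.0% and 6.25% of these 16 genes were called, beside 0.747% and 6.16% of the genes of chromosome 11. Mutation and strain background cannot be told apart here.

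*Otulin*, *Cyld* and *Spata2*, which take chains down or help to do so, gave no call in either mutant. *Otulin*, at chr15:27597055-27630977, ranged from 46.1 to 52.1 CPM over WT samples, from 39.7 to 49.3 CPM over *Hoil* ΔCd4 samples and from 45.8 to 56.1 CPM over *Sharpin* cpdm samples. Of its 4 differences from WT the farthest from 0 was −0.164, for the later fraction of *Hoil* ΔCd4 (95% interval −0.307 to −0.02, limma adjusted p = 0.164), at 88.3% of WT.

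*Cyld*, at chr8:88696878-88751946, stood between 91.0% and 101% of WT. Its difference in *Hoil* ΔCd4 MHC I low cells was −0.143 (95% interval −0.256 to −0.029, limma adjusted p = 0.297), where 228.2 to 232.7 CPM lay below 247.8 to 264.8 CPM in WT, and the other 3 intervals lay within −0.111 and 0.113. Between *Hoil* ΔCd4 and WT MHC I low cells, values did not overlap for 14.7% of all genes. *Spata2*, at chr2:167481136-167493238, stood between 94.5% and 104% of WT, and its intervals ran from −0.216 to 0.195 over the 4 comparisons. *Spata2* shares 594 bases with *Rnf114* on the opposite strand, and *Cyld* and *Tnip1* overlap pseudogenes. Strand settings of the counting are not stated, so reads of such stretches cannot be assigned with certainty.

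**Figure D3:**
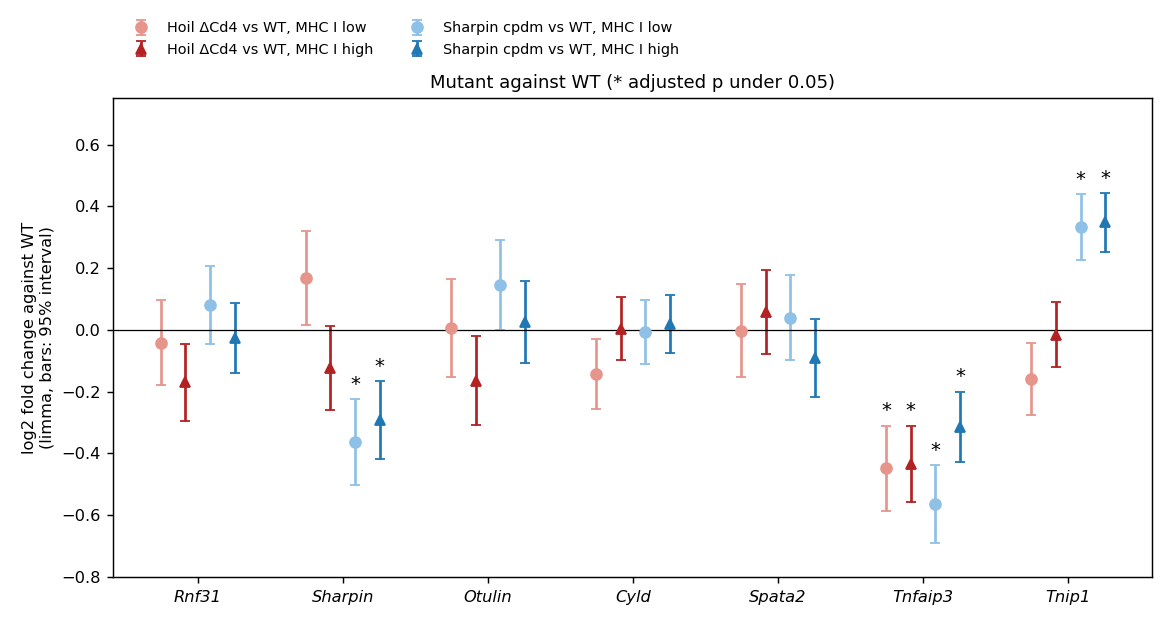
Log2 fold change against WT (vertical axis) of 7 genes in each mutant and fraction, with 95% intervals from limma and asterisks for adjusted p under 0.05; *Rbck1* is left out for its scale. *Tnfaip3* lies below 0 in all 4 comparisons, *Sharpin* below 0 and *Tnip1* above 0 with an asterisk in *Sharpin* cpdm, and the intervals of *Cyld*, *Otulin*, *Rnf31* and *Spata2* carry no asterisk.

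The step between the fractions moved more of these genes than either mutation, as it did for genes at large. In WT 5 of the 8 were called beside 54.4% of all genes. In *Hoil* ΔCd4 6 of 8 were called beside 45.3%, the deleted *Rbck1* among them, and in *Sharpin* cpdm 4 of 8 beside 54.6%. With 8 genes, nothing particular to the system is read from these counts, and the individual directions follow.

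Between the fractions the editors parted. *Tnip1* was higher in MHC I high cells of all 9 mice, by 0.388 to 0.599 log2, and the limma change was 0.45 for WT, 0.60 for *Hoil* ΔCd4 and 0.47 for *Sharpin* cpdm (adjusted p = 1.63e-10, 5.78e-11 and 2.12e-10). *Tnfaip3*, its partner, was lower in all 9 mice, with changes of −0.814 to −0.397 log2 and limma values of −0.70 for WT, −0.68 for *Hoil* ΔCd4 and −0.45 for *Sharpin* cpdm (limma adjusted p = 4.43e-13, 1.19e-10 and 1.9e-08). *Tnip1* per *Tnfaip3*, per length, went from 0.773 ± 0.0603 to 1.75 ± 0.126 for WT, from 0.95 ± 0.103 to 2.29 ± 0.187 for *Hoil* ΔCd4 and from 1.44 ± 0.09 to 2.72 ± 0.0755 for *Sharpin* cpdm (SD, n = 3).

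The drop of *Tnfaip3* was smaller in *Sharpin* cpdm than in WT by 0.249 log2 (95% interval 0.099 to 0.399), which narrowly missed the threshold (limma adjusted p = 0.0557). Of 20 alternatives 4 called it, 1 of them narrowly, with an adjusted p that rounds to 0.05, and the adjusted p ran from 0.0327 to 0.304. In that comparison 3.13% of all genes were called and 0 of the 8 by limma, edgeR or DESeq2, while 1 of the 8 had an unadjusted limma p under 0.05.

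*Cyld* was higher in MHC I high cells of all 9 mice, by 0.183 to 0.459 log2, with 0.29 for WT, 0.44 for *Hoil* ΔCd4 and 0.32 for *Sharpin* cpdm (limma adjusted p = 6.09e-07, 2.04e-08 and 2.95e-07). *Spata2*, the adaptor of CYLD, was lower in all 9, with changes of −0.471 to −0.171 log2 and limma values of −0.32, −0.26 and −0.45 (limma adjusted p = 1.38e-05, 0.00252 and 1.05e-07). The gene of the deubiquitinase and that of its adaptor thus moved in opposite directions, and *Spata2* per *Cyld* went from 0.473 ± 0.00709 to 0.311 ± 0.00608 in WT. *Otulin* was lower in 7 of 9 mice and higher in 2, with no call in any genotype (0.01, −0.16 and −0.11, limma adjusted p = 0.894, 0.0722 and 0.129).

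Among the subunits, *Rnf31* was higher in MHC I high cells of 7 of 9 mice. The change was called in WT (0.22, SE 0.0507, limma adjusted p = 0.000405), though not without WT mouse 3 (0.0512, with 0.000193 the lowest over 20 alternatives), and not in *Hoil* ΔCd4 (0.10, 0.223) or *Sharpin* cpdm (0.12, 0.0624, called in 5 of 20). The differences between genotypes, −0.129 and −0.107, did not pass (limma adjusted p = 0.605 and 0.471). *Rbck1* was higher in MHC I high cells of the 6 mice that keep the gene, by 0.159 to 0.279 log2. The 3 WT values of each fraction did not overlap, as for 52.7% of all genes. In the fit over all groups the change of *Rbck1* was not called (WT 0.25, limma adjusted p = 0.352, and *Sharpin* cpdm 0.17, 0.544). A fit to the groups compared alone, without the *Hoil* ΔCd4 samples, gave 0.254 and 0.182 with limma adjusted p = 5.23e-05 and 0.000814, the lowest of 19 alternatives that reached up to 0.59 and 0.737 and called 3 and 2 times. *Sharpin* was higher in 4 and lower in 5 of 9 mice.

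**Figure D4:**
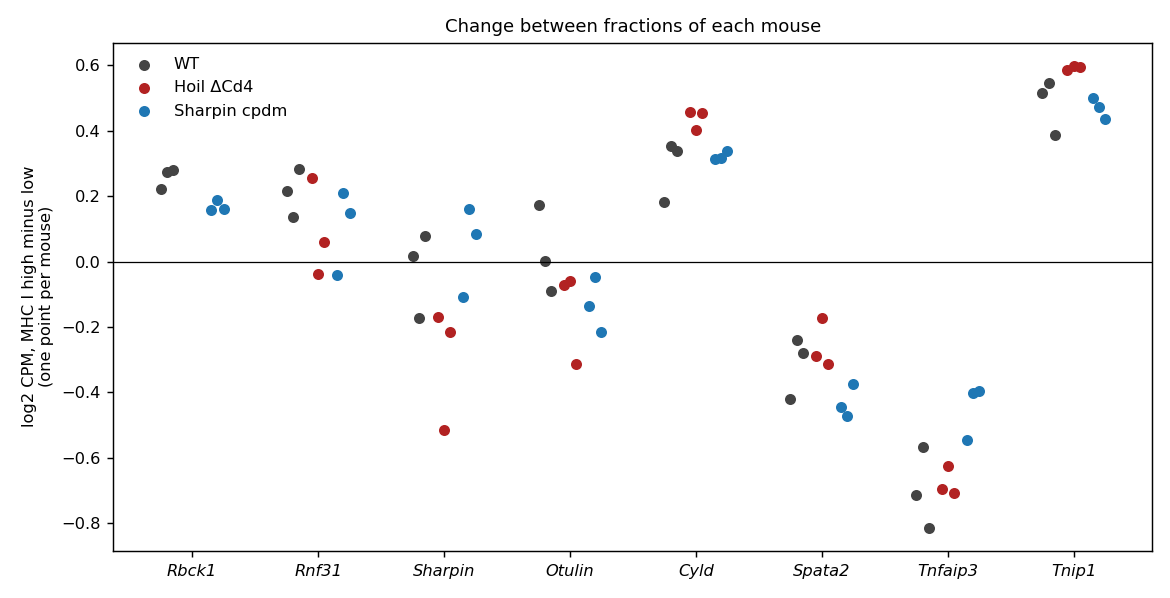
Difference in log2 CPM between the MHC I high and MHC I low sample of each mouse (vertical axis), 1 point per mouse, by genotype; *Rbck1* is not drawn for *Hoil* ΔCd4. All 9 points lie above 0 for *Cyld* and *Tnip1* and below 0 for *Spata2* and *Tnfaip3*.

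Markers of maturation moved with the fractions and in part with the genotypes. Over 6 genes of mature single-positive cells, the MHC I low libraries of WT summed to 649 to 676 CPM, those of *Hoil* ΔCd4 to 546 to 598 CPM and those of *Sharpin* cpdm to 776 to 794 CPM. The MHC I high libraries summed to 1430 to 1520, 1180 to 1230 and 1420 to 1510 CPM. *Tnip1* was in the same order over the genotypes in MHC I low cells, but not in MHC I high cells. There the sum of *Sharpin* cpdm overlapped WT, while its *Tnip1*, 208.4 to 218.4 CPM, lay above the 161.1 to 176.4 CPM of WT. The sum of *Hoil* ΔCd4 lay below WT, while its *Tnip1*, 157.2 to 170.0 CPM, overlapped WT. The part of maturation in the difference of *Tnip1* was not tested.

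Around the system, 47 genes of 5 lists were examined, of which 44 passed the filter. In *Hoil* ΔCd4 1 of 44 was called in the earlier and 3 in the later fraction (2.27% and 6.82%, beside 0.985% and 6.65% of all genes). In *Sharpin* cpdm 5 and 4 were called (11.4% and 9.09%, beside 12.2% and 8.62%). These shares were near those of all genes.

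Of the 15 genes of complexes that recruit LUBAC, *Birc3*, which encodes the ubiquitin ligase cIAP2 and is an NF-κB target gene, was lower in both mutants. MHC I low samples of WT had 85.6 to 100.5 CPM, those of *Hoil* ΔCd4 64.8 to 74.4 CPM and those of *Sharpin* cpdm 58.9 to 63.2 CPM, and MHC I high samples had 117.3 to 122.3, 93.0 to 110.3 and 98.6 to 102.6 CPM. Each mutant's range lay below that of WT in both fractions. Over the 4 comparisons of a mutant with WT, values did not overlap for 14.7% to 30.0% of all genes. The study's authors also name *Birc3* among NF-κB target genes reduced in both mutants in these data. The log2 fold changes in MHC I low cells were −0.44 in *Hoil* ΔCd4 and −0.62 in *Sharpin* cpdm (limma adjusted p = 0.000318 and 4.72e-08). In the later fraction they were −0.27 and −0.26 (limma adjusted p = 0.006 and 0.00286), the first lost in 4 of 20 alternatives, each leaving out 1 mouse (*Hoil* ΔCd4 mouse 2 or 3, or WT mouse 1 or 3; range 0.0013 to 0.182), and the second without WT mouse 3 (range 0.00137 to 0.0872).

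*Birc2*, which encodes the related ligase cIAP1, gave −0.14 to 0.01 in the 4 comparisons and no call. *Tab1*, a partner of the kinase TAK1, rose in *Sharpin* cpdm MHC I low cells by 0.26 (limma adjusted p = 0.0124, range 0.00637 to 0.0536, lost without WT mouse 2). *Traf2*, an adaptor of TNF receptor 1, fell by 0.19 in *Sharpin* cpdm MHC I high cells (limma adjusted p = 0.0209, called in 13 of 20 alternatives). *Ripk1*, the kinase that carries linear chains in the TNF receptor complex, gave no call in a mutant and was 0.65 higher in MHC I high than low WT cells (limma adjusted p = 3.29e-11).

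Of the 8 readers and partners, *Vcp*, a ubiquitin-dependent segregase gene, rose in *Sharpin* cpdm MHC I low cells by 0.23 (limma adjusted p = 0.0192, called in 17 of 20 alternatives) and *Tnip2*, the *Tnip1* relative encoding ABIN-2, rose in MHC I high cells by 0.24 (0.0284, called in 8 of 20). *Tnip2* changed by −0.91 from MHC I low to high WT cells (limma adjusted p = 1.78e-13), against the 0.45 by which *Tnip1* was higher. *Ikbkg*, which encodes NEMO, gave no call in a mutant and 0.20 between the WT fractions (limma adjusted p = 0.00169).

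Of the 6 relatives of the editors, *Otulinl*, the catalytically inactive relative next to *Otulin* on chromosome 15, fell in *Hoil* ΔCd4 MHC I high cells by 0.21 (limma adjusted p = 0.0161, called in 16 of 20 alternatives but not without *Hoil* ΔCd4 mouse 2, 0.183, or mouse 3, or WT mouse 1 or 3) and was 0.38 higher in MHC I high than low WT cells (3.32e-08). *Vcpip1*, a deubiquitinase gene, fell in *Sharpin* cpdm MHC I low cells by 0.29 (limma adjusted p = 0.00471, range 0.00146 to 0.0534, lost without WT mouse 1). *Otud4*, another deubiquitinase gene, gave 0.14 between the WT fractions (0.0141, called in 15 of 20).

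Of the 6 ubiquitin, E1 and E2 genes, *Uba1*, the main ubiquitin activating enzyme, rose in *Sharpin* cpdm MHC I low cells by 0.21 (limma adjusted p = 0.0085, range 0.00448 to 0.0634, lost without *Sharpin* cpdm mouse 2) and *Ube2l3*, the E2 that LUBAC uses, rose in *Hoil* ΔCd4 MHC I high cells by 0.26 (0.029, called in 11 of 20 alternatives but not without *Hoil* ΔCd4 mouse 2, 0.287, or mouse 3, or WT mouse 1 or 3). Of the 12 other RBR ligases, the family of HOIP, *Rnf144b* rose in *Sharpin* cpdm MHC I high cells by 1.56 (limma adjusted p = 0.029) at levels of 0.509 to 1.02 CPM against 0.138 to 0.323 CPM in WT, called in 7 of 17 alternatives. Between the WT fractions *Rnf216* changed by −1.46 and *Rnf19b* by 0.67 towards MHC I high cells (limma adjusted p = 1.3e-10 and 1.23e-08).

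Across the fractions in WT, 25 of the 44 genes were called, 14 higher and 11 lower in MHC I high cells, 56.8% beside 54.4% of all genes. Without WT mouse 3, 13 were called, but the share of all genes in that fit is not given here. The MHC I high sample of this mouse had the highest quality weight, 2.42, in a range from 0.628.

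The genes most like each member by Pearson correlation of log2 CPM over the 18 samples are given as a description, since the samples share genotype and fraction. *Tnfaip3* was closest to *Gadd45b* (0.98) and *Stx11* (0.956), *Tnip1* to its neighbour *Anxa6* (0.956) and *Agrn* (0.947), *Cyld* to *Arl4c* (0.98) and *St3gal1* (0.977) and *Spata2* to *Rbm15b* (0.978) and *Dusp6* (0.968). *Gadd45b*, a stress response gene, had 41.5 to 58.4 CPM over the MHC I low samples of WT, 19.2 to 22.9 CPM over those of *Hoil* ΔCd4 and 19.3 to 24.2 CPM over those of *Sharpin* cpdm.

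*Sharpin* was closest to *Ccnl1* (0.928) and *Rbm12b2* (0.899), *Rnf31* to *Fam151b* (0.903) and *Gtf2i* (0.843), and *Otulin* to *Dpm2* (0.817) and *Sfxn3* (0.816). *Rbck1* was closest to *Marchf6* (0.92) and *Trib3* (0.891). *Marchf6*, which encodes a ubiquitin ligase of the endoplasmic reticulum, stood at 108.5 to 123.9 CPM in the 6 *Hoil* ΔCd4 samples and at 179.5 to 222.7 CPM in the 12 others.

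Genes beside the mutated loci were examined as well. Within 1 Mb of *Rbck1*, 24 genes were tested in *Hoil* ΔCd4 cells against WT. Of these, 2 (8.33%) were called in the earlier and 3 (12.5%) in the later fraction, beside 1.4% and 6.69% of the genes of chromosome 2. Of 5 tested genes within 200 kb of *Rbck1*, *Trib3*, which encodes a stress-induced pseudokinase, fell in *Hoil* ΔCd4 cells by 2.16 and 2.37 log2 in the earlier and later fraction (limma adjusted p = 0.0027 and 0.000111) and held in all 19 alternatives that could test it. Its levels were low, 1.49 to 3.38 CPM in WT against 0.260 to 0.726 CPM in the mutant. *Zcchc3* rose by 1.21 in MHC I high cells (0.0221, called in 11 of 19 alternatives but not without *Hoil* ΔCd4 mouse 2, 0.315, or mouse 3, or WT mouse 1 or 3), from 0.808 to 1.07 CPM to 1.52 to 2.88 CPM.

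Of 18 tested genes within 200 kb of *Sharpin*, 2 were called in each fraction of *Sharpin* cpdm cells, a share near the 12.2% and 8.62% of all genes. Within 1 Mb 12.3% and 5.26% were called, beside 13.8% and 8.82% of the genes of chromosome 15. *Plec*, which encodes the cytoskeletal linker plectin, fell by 0.37 and 0.49 log2 (limma adjusted p = 0.00118 and 1.65e-05), to 760.8 to 835.7 CPM from 930.3 to 1070 CPM in MHC I low samples. *Smpd5* rose in MHC I low cells by 0.41 (0.0388, called in 10 of 20 alternatives), and *Spatc1* fell in MHC I high cells by 1.81 (0.0263, called in 10 of 15) at levels under 1 CPM.

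**Figure D5:**
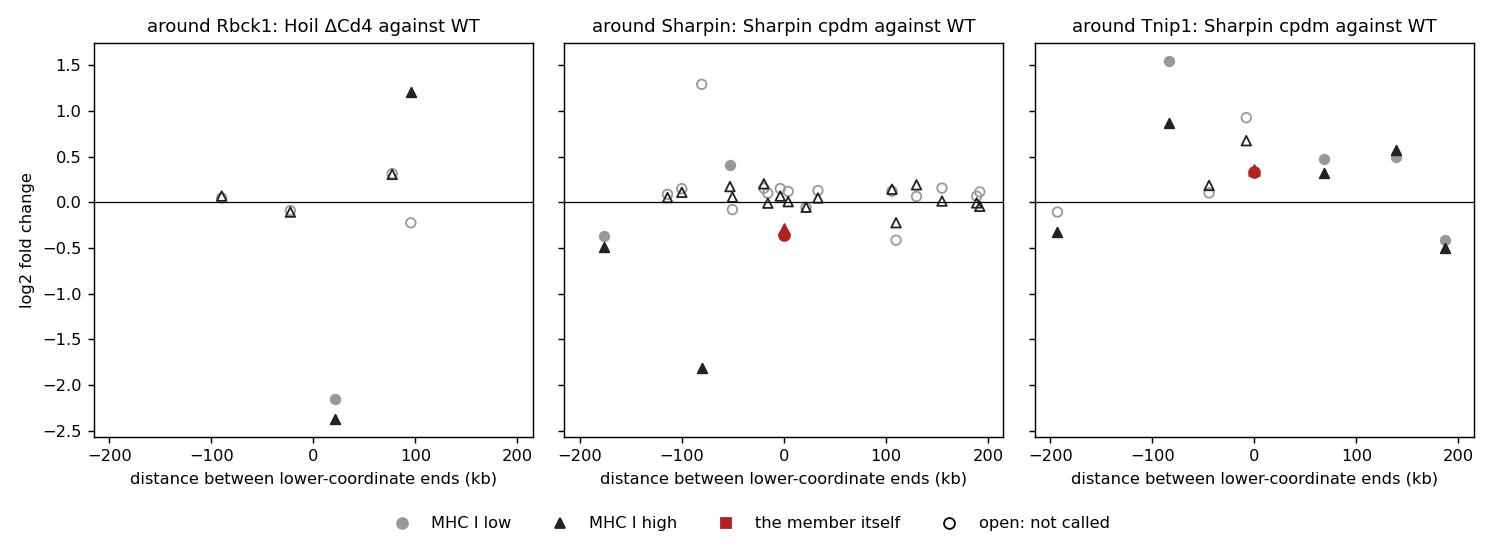
Log2 fold change against WT (vertical axis) of tested genes within 200 kb of *Rbck1*, *Sharpin* and *Tnip1* by the distance between lower-coordinate ends (horizontal axis, kb), circles for MHC I low and triangles for MHC I high, filled where called. *Trib3* is the low pair beside *Rbck1*, whose own values are off the scale, and 5 of the 7 neighbours of *Tnip1* carry a filled symbol in *Sharpin* cpdm.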

How the data were processed

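RNA of sorted CD69+ thymocytes was sequenced by the authors as single-end 75-base reads, aligned to mm10 with subread and counted per gene with featureCounts and its RefSeq-based annotation. The deposited values are raw counts. Versions, strand and multi-mapping settings are not given in the sources used here. Symbols and coordinates came from RefSeq GRCm38.p6, which matched 25275 of 27179 Entrez identifiers; the rest held 0.655% of counts. By the study's methods, genes with at least 0.5 CPM in 3 samples were kept, without chromosome Y, *Xist*, predicted and unnamed genes. Log2 CPM with TMM scaling and a prior count of 1 was fitted with limma 3.58.1 (R 4.3.3, edgeR 4.0.16, statmod 1.5.0), with 6 groups, sample quality weights and the mouse as a random block (correlation 0.224), with trend and robust empirical Bayes and Benjamini-Hochberg adjustment over 12798 genes. A call is an adjusted p under 0.05.

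By the study's methods each mouse gave both fractions, and the number in the labels was taken to mark the mouse. The deviations of the 2 samples of a mouse from their group means correlated by 0.0702 to 0.256 over genes. Samples of different mice were not correlated in this way, so these values cannot show the pairing. Groups came from the labels. As alternatives, DESeq2 1.42.0 and the quasi-likelihood test of edgeR were run, with other scaling, filters, weights, blocks and prior count, *Xist* as a covariate, fits to the groups compared, and fits without each mouse. The fit was run on simulated counts of independent samples, with changed genes in a single group and no mouse effect or differences in sample quality. These settings differ from the data, so that run does not check the mouse block or the weights. The 8 genes and the lists were chosen with earlier results of these data known. Named from each list were up to 4 genes called in most comparisons with WT and 2 with the smallest p between WT fractions, up to 3 called neighbours of *Rbck1* and *Sharpin*, and the 2 most correlated genes. *Tab3* and the *Tnip1* neighbours were added after their values were seen. Some genes that this rule names are not reported here.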

Additional observations from a re-analysis of the deposited data

Results flagged for a closer look

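The change of *Rbck1* between the fractions differed between *Hoil* ΔCd4 and WT by 3.07 on the log2 scale, by a test of the difference itself. That call was lost without *Hoil* ΔCd4 mouse 3 or WT mouse 3 (limma adjusted p = 0.0517 and 0.0599). Of the 44 pathway genes tested, 2 (4.55%) differed in the same way between *Sharpin* cpdm and WT. This share was near the 3.13% of all genes called in that comparison. *Birc3* rose more towards the later fraction in *Sharpin* cpdm (0.73) than in WT (0.37), by 0.356 (limma adjusted p = 0.0071, called in 15 of 20 alternatives with a range of 0.00326 to 0.111). *Tab3*, a partner of the kinase TAK1, changed by −0.16 in WT and by 0.20 in *Sharpin* cpdm towards the later fraction, a difference of 0.351 (limma adjusted p = 0.0302, called in 10 of 20 alternatives with a range of 0.0209 to 0.202).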

How the results depend on the processing

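Of the 31 called results on the 8 genes, 27 stayed called in every alternative, no called result changed its direction, and of 57 not called 52 stayed so in every alternative. The 31 include calls of *Rbck1* that follow from its deletion in *Hoil* ΔCd4. They also include calls between fractions, where about as many genes at large were called as not. The share of all genes that stayed called is not given here. With at least 10 counts in every sample *Rbck1* could not be tested, and the genes called then were 1 in each fraction of *Hoil* ΔCd4 against WT, 1 in MHC I high *Sharpin* cpdm against *Hoil* ΔCd4, 0 for the change between fractions in *Hoil* ΔCd4 against WT and 1 (*Tnfaip3*) in *Sharpin* cpdm against WT. The last count was also 1 with scaling by library size only. Without 1 mouse, these last 2 counts each ranged from 0 to 1.

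Of the 44 pathway genes, those called in MHC I high *Sharpin* cpdm cells were 1, not 4, by edgeR, by DESeq2 and without quality weights. Those whose change between fractions differed in *Sharpin* cpdm were 0 by edgeR and DESeq2 and 1 with no filter. For pairing, they were 1 with no replicate block and 1 with the mouse number as a fixed replicate block, and no count of the 8 genes moved with either. Without 1 mouse the pathway counts ranged from 0 to 5 in *Hoil* ΔCd4 MHC I high, from 3 to 7 and from 0 to 6 in *Sharpin* cpdm MHC I low and high, from 1 to 3 in both fractions between the mutants, from 13 to 25 between WT fractions, from 12 to 22 between *Hoil* ΔCd4 fractions, and from 0 to 2 for the change between fractions in *Sharpin* cpdm. The shares of all genes called in these fits are not given here, and the cause was not tested. All WT mice were female, so that sex and genotype are in part confounded.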
